A study of Homo sapiens with 30 samples.

Results

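K422 is an established cell line of diffuse large B-cell lymphoma (DLBCL) of the germinal center B-cell-like (GCB) type, and its response to AZD8186, an inhibitor of the PI3K catalytic subunits β and δ, was measured by RNA sequencing. The K422 libraries were taken by their labelled cell line and made up 8 of the 30 libraries of the series. K422 cells had received 0.5 µM AZD8186 or the solvent DMSO for 6, 12, 18 or 24 h, and each combination gave 1 library, so that 4 AZD8186 libraries were set against 4 DMSO libraries of the same time points. All 8 libraries came from 1 line in 1 medium. Separate cultures are not stated, and the p-values reflect the scatter of these libraries alone, part or all of which may be technical for a given gene. As each combination had 1 library, a change of the response with time also counts as scatter in the test over all times. The other libraries came from the GCB line HT (8 libraries) and the activated B-cell-like (ABC) lines OCI-Ly10 (8 libraries) and TMD8 (6 libraries), given the same drug and dose. By the paper's methods OCI-Ly10 and TMD8 grew in Iscove's medium, and K422 and HT in RPMI medium. In comparisons with the ABC lines, line and medium cannot be told apart.

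The K422 libraries held 17543304 to 22190840 counts. The cell type was checked against markers given in CPM, the count of a gene scaled to the library size. These markers cannot tell B-cell lines apart, so the label K422 itself was not tested. All 8 of 8 B-cell markers were measured, and their sum lay at 2438 to 3224 CPM with AZD8186 and at 2262 to 2570 CPM with DMSO. Of 11 myeloid markers in the files 7 had no count in any of the 8 libraries, and their sum was 3.40 to 8.27 CPM with AZD8186 and 2.37 to 5.23 CPM with DMSO. The 1 tested, CD68, a lysosomal protein of macrophages, read 3.40, 4.25, 5.49 and 7.83 CPM against 4.05, 2.91, 2.38 and 2.31 CPM (log2 fold change 0.81 ± 0.31, adjusted p = 0.065), and it passed without the 6 h pair (adjusted p = 0.00801) and by DESeq2 (adjusted p = 0.0363). The sum of 23 germinal center genes, of which 21 were tested, was 3197 to 3985 CPM with AZD8186 and 2498 to 2571 CPM with DMSO. The T-cell marker sum was 113 to 129 CPM with AZD8186 and 106 to 118 CPM with DMSO, and most of it was CD3G, a chain of the T-cell receptor complex (log2 fold change 0.25), while 3 of the 13 markers in the files had no count. CD3G and CD3E passed the test, and neither passed without the 18 h pair (adjusted p = 0.0645 and 0.179). The sum of the stromal and epithelial markers was 508 to 619 CPM with AZD8186 and 283 to 399 CPM with DMSO, and nearly all of it was DCN, a matrix proteoglycan of fibroblasts (log2 fold change 0.73), while COL1A1, COL1A2 and COL3A1 had no count. The part of these transcripts in the results was not tested. Ribosomal protein transcripts took 13.7% to 16.6% of the counts with AZD8186 and 11.4% to 13.3% with DMSO, and MTRNR2L transcripts, which resemble mitochondrial ribosomal RNA, took 0.461% to 0.542% and 0.183% to 0.373%. Neither range overlapped between the groups.

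PI3K makes the membrane lipid PIP3 at activated receptors, among them the B-cell receptor, and lipid phosphatases remove it. PIP3 recruits the kinase AKT, which keeps FOXO transcription factors out of the nucleus and activates the kinase complex mTORC1, a driver of ribosome, protein and lipid synthesis. In germinal center B cells FOXO1 is part of the program of the dark zone, where the cells divide and diversify their antibody genes, and MYC is a main activator of growth genes.

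AZD8186 treatment changed a large share of the K422 transcriptome, in both directions. Of 10603 genes tested, 4966 (46.8%) passed, and 2542 (24.0%) were lower and 2424 (22.9%) were higher at an adjusted p under 0.05, by edgeR's quasi-likelihood test with the time point as a block and Benjamini-Hochberg adjustment. The median log2 fold change was 0.01. Below, each change is given as the log2 fold change of AZD8186 over DMSO ± a standard error (SE). The SE was derived from the fold change and the F statistic of the test, whose variance is moderated across genes. Levels are given in CPM in the order 6, 12, 18 and 24 h. Changes of at least 2-fold were more often upward, with 421 called genes higher and 124 lower, and on the log2(TPM + 1) scale, which understates changes of low genes, these counts were 128 and 91. Of the called genes, 2469 of the lower and 2324 of the higher ones had the same direction in all 4 pairs, and the 4 AZD8186 values lay entirely outside the range of the 4 DMSO values for 1983 lower and 1733 higher genes, where 37.7% of all genes tested did not overlap. The counts were lower without either of the middle time points: without the 12 h pair 1668 genes were lower and 1459 higher, and without the 18 h pair 1529 were lower and 1294 higher. On TPM values (transcripts scaled by length and library), which are not rescaled between libraries, the split was 2751 lower and 1668 higher.

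**Figure D1:**
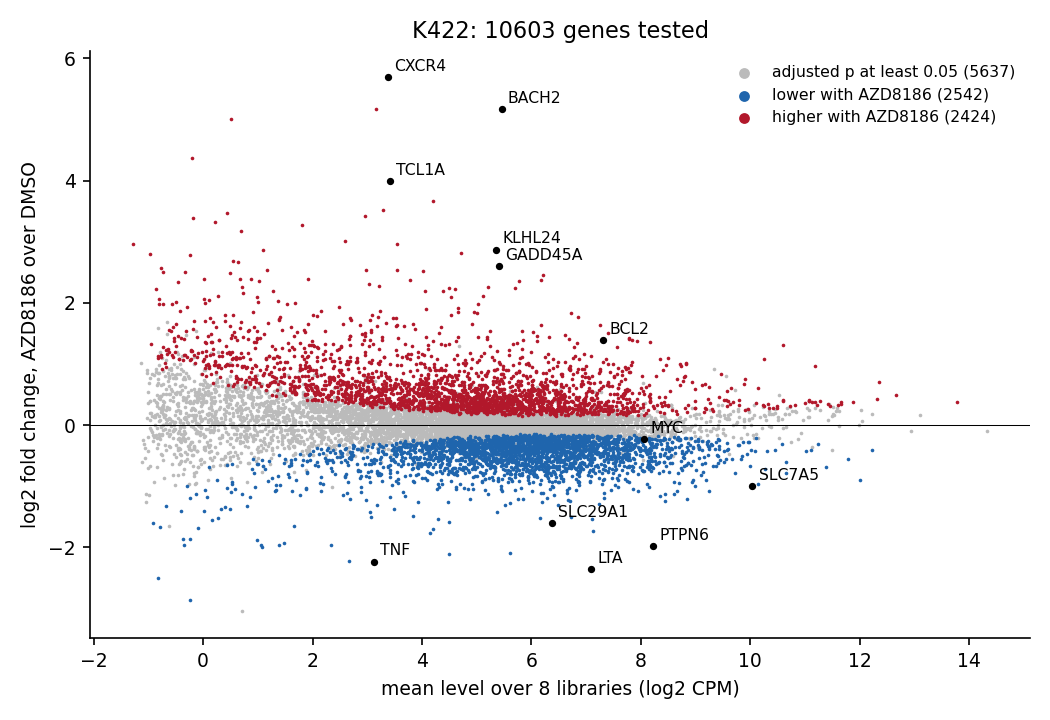
Log2 fold change of AZD8186 over DMSO in K422 (vertical axis) against the mean level over the 8 libraries in log2 CPM (horizontal axis) for the 10603 genes tested, with 2542 genes lower (blue), 2424 higher (red) and 5637 that did not pass (gray). The rises reach further from 0 than the falls, with CXCR4 at 5.69 and BACH2 at 5.17 against LTA at -2.36.

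The largest rises, taken among called genes that averaged 5 CPM or more over the 8 libraries and kept 1 direction in all 4 pairs, were led by genes that K422 hardly transcribed without the drug. CXCR4, the receptor that draws B cells to CXCL12 and into the dark zone, was at 7.24, 18.2, 24.4 and 32.2 CPM with AZD8186, against 0.684, 0.275, 0.359 and 0.110 CPM with DMSO. The groups did not overlap and the level was highest at 24 h (log2 fold change 5.69 ± 0.46, adjusted p = 0.000218). BACH2, a repressor that holds B cells back from plasma cell differentiation, read 26.9, 53.1, 111 and 151 CPM against 2.69, 1.59, 1.89 and 2.15 CPM (log2 fold change 5.17 ± 0.40, adjusted p = 0.000202). In all 4 libraries it stood above every DMSO library, and further above at each later time. OSR2, a zinc finger transcription factor, read 4.34, 14.2, 24.99 and 26.1 CPM against 0.293, 0.549, 0.359 and 0.660 CPM (log2 fold change 5.18 ± 0.26, adjusted p = 8.9e-05). TCL1A, a coactivator of AKT found in germinal center and naive B cells, went from 2.12 at 6 h to 48.0 CPM at 24 h with AZD8186 and stayed at 0.550 to 1.65 CPM with DMSO (log2 fold change 3.99 ± 0.71, adjusted p = 0.00397). RASSF6, PECAM1, KANK2, RASAL1, KLHL24, TAGAP, GADD45A and CECR2 completed the 12 largest rises, with log2 fold changes of 2.54 (CECR2) to 3.67 (RASSF6) and no overlap between the groups.

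By the same rule the largest falls included cytokine and signaling genes. LTA and TNF lie side by side on chromosome 6 (GRCh38, chr6:31572054-31574324 and chr6:31575567-31578336, both on the plus strand). LTA, the cytokine lymphotoxin alpha, fell from 277, 269, 199 and 170.4 CPM with DMSO to 43.2, 41.7, 43.8 and 46.2 CPM with AZD8186 (log2 fold change -2.36 ± 0.14, adjusted p = 0.000115). TNF, a cytokine of the same family, read 1.73, 3.56, 3.57 and 3.44 CPM with AZD8186 against 11.9, 13.7, 15.6 and 15.9 CPM with DMSO (log2 fold change -2.23 ± 0.15, adjusted p = 0.000134). PTPN6, the phosphatase SHP-1 that restrains B-cell receptor signaling, read 104, 106, 126 and 149 CPM against 516, 502, 461 and 425 CPM (log2 fold change -1.99 ± 0.14, adjusted p = 0.000157), and SLC29A1, a nucleoside transporter, read 46.8, 40.1, 35.9 and 41.2 CPM against 138, 116, 119.8 and 125 CPM (log2 fold change -1.61 ± 0.06, adjusted p = 3.52e-05). In each of the 4 the AZD8186 values lay below every DMSO value from 6 h on. HIVEP3, PTAFR, SEMA7A, ALDH3B2, CD3EAP, HTR3A, SLC17A9 and ETV5 completed the 12 largest falls, with log2 fold changes of -2.22 (HIVEP3) to -1.59 (ETV5) and no overlap between the groups.

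Of 9 PI3K subunits and partners tested 1 was lower (11.1%) and 2 were higher (22.2%), against 24.0% and 22.9% of all genes tested. With DMSO the catalytic subunits were transcribed per length at 12.5 ± 1.37 TPM for PIK3CD, 11.9 ± 1.99 TPM for PIK3CG, 8 ± 0.43 TPM for PIK3CB and 3.19 ± 0.34 TPM for PIK3CA (mean ± SD, n = 4). PIK3CD and PIK3CG did not differ beyond their spread, and both lay above PIK3CB, which lay above PIK3CA in every library. The drug targets PIK3CB and PIK3CD did not pass the test (log2 fold changes -0.09 ± 0.07 and 0.18 ± 0.08, adjusted p = 0.336 and 0.0982), and without the 6 h pair PIK3CD passed (0.26, adjusted p = 0.0162). PIK3CA, the subunit α that AZD8186 spares, read 33.2, 27.1, 32.0 and 35.5 CPM with AZD8186 against 22.0, 21.3, 20 and 24.1 CPM with DMSO (log2 fold change 0.54 ± 0.08, adjusted p = 0.00158). PIK3CG read 39.0, 37.9, 47.6 and 45.6 CPM against 57.6, 56.3, 68.5 and 70.9 CPM (log2 fold change -0.57 ± 0.06, adjusted p = 0.000371). The groups did not overlap in either. PIK3IP1, an inhibitory partner of the catalytic subunits, read 27.7, 30.03, 34.3 and 44.4 CPM against 8.31, 6.98, 7.505 and 6.71 CPM (log2 fold change 2.19 ± 0.15, adjusted p = 0.000157). It stood above every DMSO library by 6 h.

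Of 25 AKT and mTOR components tested 3 were lower (12%) and 6 higher (24%), and of 9 phosphatases 3 were lower (33.3%) and 2 higher (22.2%), beside the same shares of all genes of 24.0% and 22.9%. DDIT4, an inhibitor of mTORC1, read 50.2, 52.5, 43.4 and 49.1 CPM with AZD8186 against 92.3, 89.0, 85.0 and 85.7 CPM (log2 fold change -0.85 ± 0.06, adjusted p = 0.000157), whereas SESN3, another inhibitor of mTORC1, read 73.2, 72.0, 59.7 and 75.3 CPM against 43.4, 40.9, 38.7 and 46.6 CPM (log2 fold change 0.72 ± 0.06, adjusted p = 0.000232). INPP5D, the phosphatase SHIP1, had a log2 fold change of -0.55 ± 0.11 (adjusted p = 0.00573), and INPP5K and PPP2R5C were higher by 0.78 and 0.83. The count of higher AKT and mTOR components was 2 without the 12 h pair, 2 without the 18 h pair and 2 on TPM values. IRS2 had no count in any K422 library, and INSR, the insulin receptor, had 2 counts in 1 DMSO library and none elsewhere, and neither could be read in K422. Of the receptors and adaptors upstream of PI3K 4 of 14 were tested, and among these GAB2 and ERBB2 were higher by 1.38 and 0.96.

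The targets of FOXO rose nearly as a whole. Of 33 members tested, of 47 listed, 29 were higher and 1 was lower, with a median log2 fold change of 1.05 against 0.01 over all genes tested, and the median log2 ratio was already 0.90 at 6 h and reached 1.34 at 24 h. FOXO1 itself read 188, 224, 283 and 230.4 CPM with AZD8186 against 73.0, 65.1, 83.1 and 73.9 CPM with DMSO (log2 fold change 1.64 ± 0.08, adjusted p = 8.98e-05), FOXO3 had a log2 fold change of 1.44 and FOXO4 of 1.29. KLHL24, an adaptor of a ubiquitin ligase, had the smallest p of the list and an even response, with 63.6, 72.1, 75.3 and 77.8 CPM against 9.28, 9.45, 10.1 and 10.6 CPM (log2 fold change 2.87 ± 0.06, adjusted p = 4.88e-06). HBP1, a repressor of cell cycle genes, read 33.7, 43.0, 35.5 and 38.6 CPM against 8.84, 8.52, 9.08 and 8.53 CPM (log2 fold change 2.10 ± 0.09, adjusted p = 6.54e-05), and CTDSP2, a small phosphatase, read 46.8, 53.0, 56.8 and 69.7 CPM against 12.8, 12.4, 12.4 and 14.1 CPM (log2 fold change 2.12 ± 0.09, adjusted p = 5.29e-05). CCNG2, a cyclin of resting cells, read 44.98, 48.2, 45.7 and 43.8 CPM against 12.7, 17.1, 12.7 and 16.1 CPM, and TXNIP, which limits glucose uptake, read 214, 261, 306 and 361 CPM against 164, 150.1, 147 and 131 CPM. In both the groups did not overlap, with log2 fold changes of 1.65 ± 0.09 and 0.93 ± 0.16. SOD2, a mitochondrial superoxide dismutase, was the member that fell (log2 fold change -0.62 ± 0.12, adjusted p = 0.00573). KLF2, a factor of B-cell homing, was at most 1.22 CPM in any library (log2 fold change 1.14, adjusted p = 0.0191), and the call was lost without the 12 h or the 18 h pair (adjusted p = 0.0928 and 0.0791).

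Of the 14 members that did not pass the filter on low counts, RAG1 and RAG2 were counted nearly only with AZD8186 at the later times. RAG1, which cuts antibody gene segments for their joining in early B cells, had 2, 5, 53 and 100 counts with AZD8186 at 6, 12, 18 and 24 h, and 1, 0, 1 and 0 with DMSO. RAG2, its partner, had 1, 0, 9 and 37 counts with AZD8186 and none with DMSO. Both were highest at 24 h, and no fold was taken at such counts. FBXO32, a ubiquitin ligase of muscle wasting, had 11, 29, 9 and 22 counts with AZD8186 and 4, 0, 7 and 0 with DMSO. The homing receptors S1PR1 and CCR7 stayed at 2 counts or fewer in every library.

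The forkhead motif GTAAACA, searched on both strands of the 250 bases before and 50 after each start in RefSeq's promoters, was held by 5 of the 30 FOXO targets with such a promoter (16.7%), by 2.21% of 8689 tested genes with one and by 3.42% of all 35116 promoters. Genes higher at least 2-fold held it in 16 of 331 cases (4.83%), and genes lower at least 2-fold in 1 of 99 (1.01%). The members that held it were BCL2L11, FOXO4, HBP1, TXNIP and YPEL3. HBP1, TXNIP and BCL2L11 are shown as the 250 bases before the start in GRCh38.p14, with the motif in capitals, to show where it lies: HBP1 from chr7:107168753-107169002 on the plus strand with the motif at -173, TXNIP from chr1:145996580-145996829 on the minus strand with it at -124, and BCL2L11 from chr2:111120664-111120913 on the plus strand with it at -223. BCL2L11, the cell death protein BIM, was the weakest of the 5, with 97.1, 102, 116 and 115 CPM against 84.4, 88.0, 92.7 and 92.6 CPM (log2 fold change 0.26 ± 0.05, adjusted p = 0.00717), and it did not pass without the 18 h pair or on TPM (adjusted p = 0.0569 and 0.802).
HBP1: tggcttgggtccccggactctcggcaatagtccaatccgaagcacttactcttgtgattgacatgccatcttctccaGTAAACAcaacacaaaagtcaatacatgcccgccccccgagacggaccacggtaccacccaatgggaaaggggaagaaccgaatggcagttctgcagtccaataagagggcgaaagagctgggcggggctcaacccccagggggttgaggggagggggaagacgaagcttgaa
TXNIP: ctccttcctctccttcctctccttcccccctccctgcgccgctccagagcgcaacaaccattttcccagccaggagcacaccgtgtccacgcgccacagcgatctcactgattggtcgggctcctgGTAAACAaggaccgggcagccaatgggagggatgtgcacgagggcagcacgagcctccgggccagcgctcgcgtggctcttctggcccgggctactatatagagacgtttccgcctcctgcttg
BCL2L11: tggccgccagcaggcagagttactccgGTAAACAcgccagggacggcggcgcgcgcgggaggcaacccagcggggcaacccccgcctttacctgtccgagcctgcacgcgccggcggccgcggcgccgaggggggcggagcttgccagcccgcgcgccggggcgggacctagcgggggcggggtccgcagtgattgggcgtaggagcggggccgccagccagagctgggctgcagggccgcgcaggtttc

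**Figure D2:**
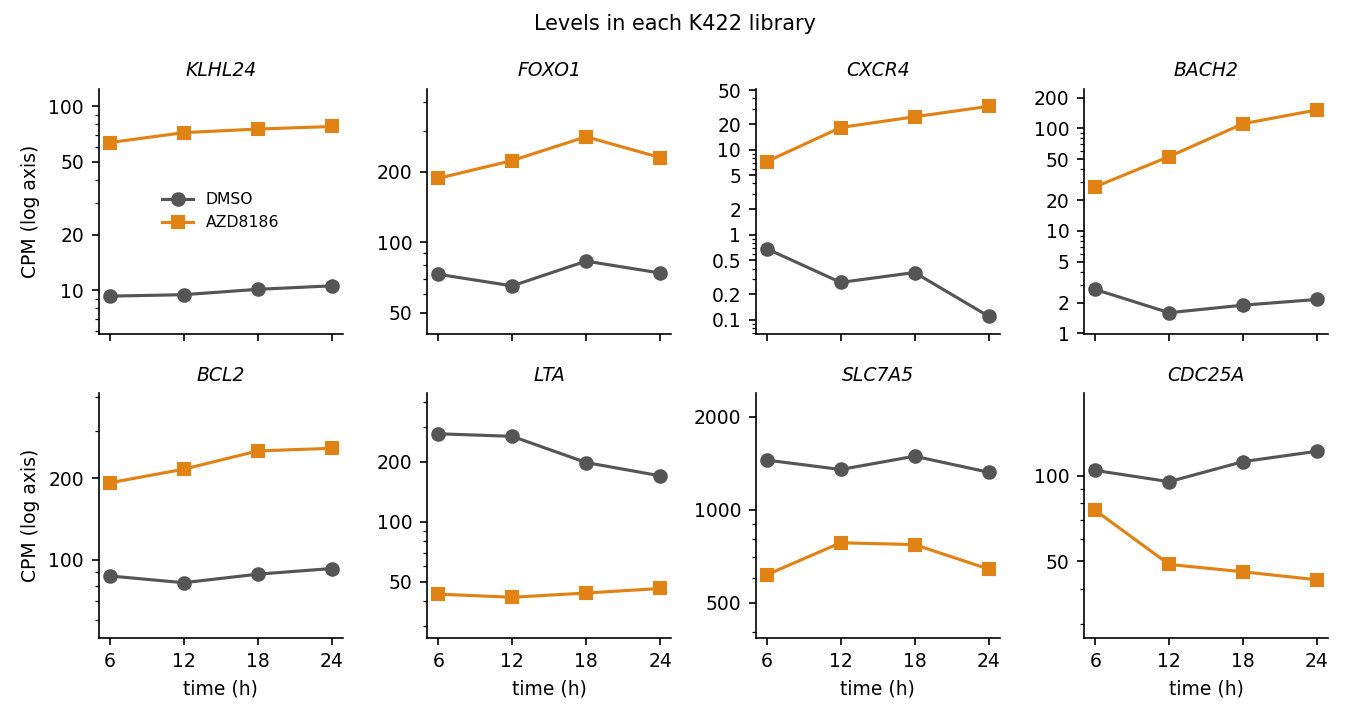
CPM on a log axis (vertical) against time in hours (horizontal) for 8 genes in each K422 library, with DMSO as gray circles and AZD8186 as orange squares. KLHL24, FOXO1, BCL2, LTA and SLC7A5 were displaced by 6 h, while with AZD8186 the CXCR4 and BACH2 levels were highest and the CDC25A level lowest at 24 h.

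Genes that build ribosomes fell together and early. Of 55 small subunit assembly factors tested 49 were lower and 1 was higher (median log2 fold change -0.59), and of 61 large subunit assembly factors 55 were lower and 1 was higher (median -0.64). Their medians hardly moved with time, from -0.53 at 6 h to -0.56 at 24 h for the small and from -0.56 to -0.64 for the large subunit. UTP4, a factor of the first processing complex on ribosomal RNA, read 74.4, 81.7, 84.5 and 76.1 CPM with AZD8186 against 141, 149, 166 and 152 CPM with DMSO (log2 fold change -0.94 ± 0.05, adjusted p = 0.000107). CCDC86, a nucleolar protein, read 56.4, 56.5, 67.6 and 62.2 CPM against 147, 141, 150 and 131 CPM (log2 fold change -1.23 ± 0.07, adjusted p = 0.0001), and NOP16 read 43.9, 43.5, 54.7 and 49.1 CPM against 109, 111, 113 and 102 CPM (log2 fold change -1.19 ± 0.07, adjusted p = 0.000121). The groups were well apart in all of these. The members that rose were NOB1, the nuclease of the last cut of the small subunit RNA, and NOP53, with log2 fold changes of 0.31 and 0.67. NOP53 did not pass without the 18 h pair (adjusted p = 0.0761). Of 20 subunits and partners of RNA polymerase I, which transcribes ribosomal RNA, 16 were lower and 2 were higher, and 10 were lower without the 18 h pair. CD3EAP, a subunit of it, fell most, from 22.8, 21.6, 37.1 and 27.5 CPM to 8.24, 5.47, 11.5 and 7.22 CPM (log2 fold change -1.76 ± 0.11, adjusted p = 0.000113).

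The ribosomal proteins themselves did not fall, and a part of them rose. Of 79 tested 28 were higher (35.4%, against 22.9% of all genes tested) and 51 did not pass. None was lower (0 also by DESeq2, by limma-voom and at an unadjusted p under 0.05). The median log2 ratio was 0.06 at 6 h, 0.13 at 12 h, 0.33 at 18 h and 0.52 at 24 h. RPS2, a protein of the small subunit, ran from 6386 to 8485 CPM with AZD8186 and from 4931 to 5869 CPM with DMSO (log2 fold change 0.49 ± 0.13, adjusted p = 0.0208). The higher count was 1, 0 and 2 without the 12, 18 and 24 h pairs and 52 without the 6 h pair. RPS2 did not pass without the 12, 18 or 24 h pair (adjusted p = 0.0858, 0.124 and 0.0581). DESeq2 called 52. Many of these genes have processed pseudogenes, among which RSEM splits reads.

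The transcript of MYC, the activator of many of these genes, moved little. By immunoblot the paper found less MYC protein in K422 with AZD8186, and protein was not measured here. The MYC transcript read 225, 231, 248.7 and 274 CPM with AZD8186 against 280.4, 266, 303 and 296 CPM with DMSO (log2 fold change -0.23 ± 0.06, adjusted p = 0.0201). The groups overlapped, and it did not pass without the 12 h or the 18 h pair (adjusted p = 0.083 and 0.118) or in the fit of all 30 libraries (adjusted p = 0.293). Of 11 members of the MYC network tested 4 were higher (36.4%) and 1 lower (9.09%), against 22.9% and 24.0% of all genes tested, with a median of 0.02. Those with the smallest p were MXD3, MXD4 and MXI1, repressors that compete with MYC for its partner MAX. MXD3 read 12.1, 17.1, 15.3 and 10.4 CPM against 3.76, 4.89, 4.67 and 4.40 CPM (log2 fold change 1.61 ± 0.12, adjusted p = 0.000199). The log2 fold changes were 1.05 for MXI1 and 0.70 for MXD4. The E-box CACGTG, to which MYC and MAX bind and which reads the same on both strands, was held by 22 of 48 small subunit promoters (45.8%) and 16 of 52 large subunit promoters (30.8%), against 920 of 8689 promoters of tested genes (10.6%) and 7.26% of all. Promoters of the 79 ribosomal protein genes held it in 3 of 63 cases (4.76%), and those of RNA polymerase I in 1 of 18 (5.56%). FOXO targets, most of which rose, held it in 6 of 30 promoters (20%), and sterol genes in 4 of 20 (20%). Promoters of all lower genes held it in 13.4% and those of all higher genes in 9.92%. UTP4 and CCDC86 are shown because they had the smallest p of their lists among the members with the motif. UTP4 is read from chr16:69132399-69132648 and CCDC86 from chr11:60841863-60842112 of GRCh38.p14, both on the plus strand, with the E-box, in capitals, at -16 and -25.
UTP4: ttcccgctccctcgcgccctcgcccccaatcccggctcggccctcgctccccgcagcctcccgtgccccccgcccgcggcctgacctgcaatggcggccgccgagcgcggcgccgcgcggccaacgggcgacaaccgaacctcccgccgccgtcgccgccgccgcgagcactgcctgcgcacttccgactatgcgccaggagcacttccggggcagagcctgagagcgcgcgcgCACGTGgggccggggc
CCDC86: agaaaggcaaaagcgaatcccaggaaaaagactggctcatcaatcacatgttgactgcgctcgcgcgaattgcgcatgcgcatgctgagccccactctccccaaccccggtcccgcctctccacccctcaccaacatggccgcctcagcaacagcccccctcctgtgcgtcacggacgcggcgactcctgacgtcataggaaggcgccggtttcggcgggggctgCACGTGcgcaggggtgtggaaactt

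Most translation and protein folding genes that passed were lower. Of 40 translation factors 20 were lower (50%) and 12 higher (30%), against 24.0% and 22.9% of all genes tested. EIF2S1, the α subunit of the factor that brings the starter tRNA, read 239, 241, 237 and 222 CPM against 379, 419.5, 417 and 408 CPM (log2 fold change -0.79 ± 0.06, adjusted p = 0.000214). The higher count was 4, 2 and 7 without the 12, 18 and 24 h pairs. Of 23 tRNA synthetases 19 were lower and 1 was higher (median -0.42). YARS, which charges tyrosine tRNA, read 91.5, 91.0, 89.6 and 101 CPM against 158, 146, 153 and 155 CPM (log2 fold change -0.71 ± 0.06, adjusted p = 0.000213). The motif TGATGNAA of the stress factor ATF4 was held by 5 of the 15 synthetases with a promoter (33.3%), against 1.61% of promoters of tested genes and 3.62% of all. IARS is shown as an example with the motif on the opposite strand at -13, read from chr9:92293698-92293947 on the minus strand, a stretch that also holds an E-box. IARS read 115, 113, 111 and 125 CPM against 146, 161, 147 and 168 CPM (log2 fold change -0.42 ± 0.06, adjusted p = 0.00118). Capitals mark the ATF4 motif. Of the other 4 with it, NARS and TARS were lower and AARS and CARS did not pass.
IARS: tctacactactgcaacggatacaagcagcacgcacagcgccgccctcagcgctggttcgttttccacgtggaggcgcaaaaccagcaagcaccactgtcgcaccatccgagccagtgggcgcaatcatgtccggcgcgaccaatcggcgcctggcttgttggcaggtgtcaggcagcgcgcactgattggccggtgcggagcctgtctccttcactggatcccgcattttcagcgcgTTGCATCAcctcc

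Of 20 targets of ATF4 11 were lower (55%) and 4 higher (20%), against 24.0% and 22.9% of all genes tested. Without the 12 h pair 7 were lower, and without the 18 h pair 7, with 2 higher. TRIB3, a pseudokinase induced by stress, read 57.1, 50.9, 67.6 and 74.6 CPM against 150.3, 148, 143 and 142 CPM (log2 fold change -1.24 ± 0.11, adjusted p = 0.000268), while EIF2AK3, the kinase PERK of the endoplasmic reticulum, read 38.6, 43.8, 60.1 and 47.6 CPM against 16.2, 15.6, 19.4 and 18.4 CPM (log2 fold change 1.44 ± 0.08, adjusted p = 0.0001). Of 45 chaperones 38 were lower and 1, FKBP5, was higher. HSPA5, the chaperone BiP of the endoplasmic reticulum, read 419, 355, 363 and 405 CPM against 846, 805, 668 and 966 CPM (log2 fold change -1.08 ± 0.08, adjusted p = 0.000199). FKBP5, a target of steroid receptors, had a log2 fold change of 0.87 ± 0.17.

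Many genes for the import and synthesis of nutrients were lower. SLC7A5 and SLC3A2 form the carrier of large neutral amino acids. SLC7A5 read 615, 781, 770.1 and 642 CPM against 1446, 1348, 1488 and 1321 CPM (log2 fold change -1.003 ± 0.09, adjusted p = 0.000305), SLC3A2 had a log2 fold change of -0.75 and the glutamine carrier SLC1A5 one of -1.08. Of 16 amino acid carriers 6 were lower (37.5%) and 5 higher (31.25%), against 24.0% and 22.9% of all genes tested, with a median of -0.03. Of 23 nucleotide synthesis genes 18 were lower, led by PNP, a purine salvage enzyme, with 88.3, 96.4, 102 and 104 CPM against 208, 223, 219.8 and 237 CPM (log2 fold change -1.19 ± 0.06, adjusted p = 6.69e-05). Of 15 serine and one-carbon genes 6 were lower and 0 higher (0 also by DESeq2, by limma-voom and at an unadjusted p under 0.05), with PSAT1 at -1.06 ± 0.08, and 3 were lower without the 18 h pair. Of 10 polyamine genes 5 were lower and 1 higher, with AMD1 at -0.83. Of 41 genes of the mitochondrial ribosome and import 34 were lower and 1 was higher (median -0.46), and TOMM40, the outer membrane channel, read 154, 136, 169.5 and 147 CPM against 309.9, 305, 340.1 and 298 CPM (log2 fold change -1.05 ± 0.06, adjusted p = 0.000102). Of 11 iron genes 2 were lower (18.2%, against 24.0% of all genes tested, with a list median of 0.01) and 0 higher (0 by DESeq2 and limma-voom, 1 at an unadjusted p under 0.05). TFRC, the transferrin receptor, had the lowest value of these, with a log2 fold change of -0.92 ± 0.09. The members that rose in lists that were otherwise lower were IMPDH2, TOMM20, QARS among the synthetases and PDK3 among the glycolysis genes, with log2 fold changes of 0.23, 0.23, 0.24 and 0.43, and none of the 4 lists kept a higher member without the 12 h or the 18 h pair.

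Lipid synthesis was among the lists with the lowest medians. Of 26 sterol genes 19 were lower and 1 higher (median -0.61), and of 13 fatty acid genes 9 were lower and 0 higher (0 also by DESeq2, by limma-voom and at an unadjusted p under 0.05, median -0.80). DHCR7, the last enzyme of cholesterol synthesis, read 52.3, 50.4, 52.5 and 55.0 CPM against 102, 106, 114 and 149 CPM (log2 fold change -1.15 ± 0.08, adjusted p = 0.000183). SREBF1, the transcription factor of fatty acid synthesis, read 27.4, 28.5, 35.7 and 37.7 CPM against 65.1, 66.5, 80.2 and 88.0 CPM (log2 fold change -1.22 ± 0.06, adjusted p = 6.54e-05). SCD, which puts the double bond into fatty acids, read 367, 226, 246 and 274 CPM against 617, 506, 634 and 810.1 CPM (log2 fold change -1.21 ± 0.13, adjusted p = 0.000516), and FASN, the fatty acid synthase, had a log2 fold change of -0.96 ± 0.09. The sterol member that rose was ABCA1, which exports cholesterol, from 0.605 to 2.02 CPM with DMSO to 2.62 to 10.1 CPM with AZD8186 (log2 fold change 2.39 ± 0.21, adjusted p = 0.000293). The motif TCACNCCAC of the SREBP factors, which SREBF1 and SREBF2 encode, was held by 1 of 20 sterol promoters (5%) and 0 of 12 fatty acid promoters. It was held by 1.15% of promoters of tested genes. The sterol holder was SREBF2 itself, which did not pass (adjusted p = 0.989). Of 24 glycolysis genes 16 were lower and 1 higher, and 8 and 9 were lower without the 12 h and the 18 h pair. HK2, the first enzyme of glycolysis, read 93.2, 95.9, 145 and 121 CPM against 189.9, 174, 238 and 225 CPM (log2 fold change -0.88 ± 0.07, adjusted p = 0.000195).

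Among lysosome and autophagy genes 24 of 49 were higher (49.0%) and 8 lower (16.3%), against 22.9% and 24.0% of all genes tested. The lower count was 4 and 3 without the 12 h and the 18 h pair. NBR1, an autophagy receptor, read 115, 116, 118 and 132 CPM against 57.2, 61.2, 60.8 and 56.6 CPM (log2 fold change 1.03 ± 0.07, adjusted p = 0.00013), and CALCOCO1, another receptor, had a log2 fold change of 1.90. TFEB, an activator of lysosome genes, read 61.7, 53.4, 64.9 and 68.5 CPM against 128, 114, 125 and 107 CPM (log2 fold change -0.93 ± 0.08, adjusted p = 0.000293).

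The MAP kinase pathway reads out in genes of its own feedback. Of 15 tested 10 were lower and 2 were higher (median -0.63). DUSP6, the phosphatase of ERK, read 10.5, 8.97, 11.1 and 9.49 CPM against 29.5, 30.6, 29.3 and 26.6 CPM (log2 fold change -1.53 ± 0.09, adjusted p = 0.000107). DUSP4 had a log2 fold change of -1.29 ± 0.06 and ETV5, a transcription factor induced by ERK, one of -1.59 ± 0.09. SPRED2 and RASGRP3 were the members that rose, and 1 rose without the 18 h or the 24 h pair. EGR1, an early response factor, read 2.06, 1.11, 1.54 and 1.33 CPM against 7.38, 4.29, 3.42 and 4.24 CPM (log2 fold change -1.65 ± 0.18, adjusted p = 0.000616). Of 22 early signaling genes 8 were lower (36.4%) and 3 higher (13.6%), against 24.0% and 22.9% of all genes tested. The lower count was 3 without the 12 h pair and 3 without the 18 h pair, and 5 were higher without the 6 h pair. BTG2, a brake on proliferation, rose (153, 250, 311 and 367 CPM against 116, 111, 99.0 and 102 CPM, log2 fold change 1.27 ± 0.22).

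Targets of NF-κB were found among the lower and the higher genes. Of 28 tested, of 45 listed, 7 were lower and 11 were higher (24.0% and 22.9% of all genes tested), with a median of 0.09, and the higher count was 7, 5 and 7 without the 12, 18 and 24 h pairs. Below LTA and TNF, TRAF2, an adaptor of TNF receptors, was lower by a log2 fold change of -0.71. The subunit REL read 30.9, 34.3, 44.2 and 39.0 CPM against 16.1, 14.0, 19.1 and 22.1 CPM (log2 fold change 1.07 ± 0.10, adjusted p = 0.000293), and CYLD, a deubiquitinase that restrains NF-κB, read 44.2, 43.9, 49.4 and 51.0 CPM against 26.4, 25.5, 26.2 and 26.0 CPM (log2 fold change 0.85 ± 0.07, adjusted p = 0.000206). NFKBIA, the inhibitor that NF-κB induces, did not pass, with 22.2, 26.2, 26.1 and 31.2 CPM against 24.9, 24.8, 23.3 and 25.03 CPM (adjusted p = 0.385). IRF4, a target in ABC cells, had at most 3 counts per library.

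Of 31 chains and kinases of the B-cell receptor 11 were lower (35.5%) and 8 higher (25.8%), near the shares of all genes tested (24.0% and 22.9%). Inhibitory partners were among the lower members, and besides PTPN6 the inhibitory Fc receptor FCGR2B read 201, 170.3, 162 and 221 CPM against 376, 386, 343 and 354 CPM (log2 fold change -0.96 ± 0.09, adjusted p = 0.000339). CD22, an inhibitory coreceptor, read 84.3, 38.3, 29.4 and 23.9 CPM against 117, 71.4, 78.5 and 72.9 CPM (log2 fold change -1.08 ± 0.18, adjusted p = 0.00274), and its AZD8186 value at 6 h lay within the DMSO range. FCRL3, another receptor with an inhibitory tail, rose (log2 fold change 1.75 ± 0.17, adjusted p = 0.000402), and BLK, a kinase of the receptor, read 169, 243, 249.9 and 231 CPM against 145, 158, 164 and 152 CPM (log2 fold change 0.51 ± 0.08, adjusted p = 0.0025). The lower count was 6 without the 12 h pair and 6 without the 18 h pair, and the higher one was 5 without the 18 h pair. Among migration and adhesion genes 6 of 19 were lower and 6 higher (31.6% each), against 24.0% and 22.9% of all genes tested. The integrin chain ITGB2 stood at -1.24, with CXCR4 and PECAM1 at the other end. Of 7 RGS genes, which quench G-protein signals, 2 were lower (28.6%) and 3 higher (42.9%). RAC2, a small GTPase of cell movement, read 46.5, 55.7, 61.1 and 56.8 CPM against 149.5, 176, 158 and 140.1 CPM (log2 fold change -1.504 ± 0.08, adjusted p = 0.0001).

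Most germinal center genes and most genes of B-cell and plasma cell fate that passed were higher. Of 21 germinal center genes tested 17 were higher and 2 lower (median 0.83), and of 26 genes of B-cell and plasma cell fate 19 were higher and 3 lower (median 0.68). BCL6, the master repressor of the germinal center, read 754, 913, 957 and 1001 CPM against 469, 513, 519 and 527 CPM (log2 fold change 0.83 ± 0.07, adjusted p = 0.00027). MYBL1, a transcription factor of the MYB family, read 49.8, 50.2, 63.3 and 50.1 CPM against 17.4, 18.6, 21.0 and 21.5 CPM (log2 fold change 1.44 ± 0.08, adjusted p = 0.0001) and GCSAM read 67.9, 78.4, 62.5 and 57.5 CPM against 28.97, 33.5, 29.7 and 27.8 CPM (log2 fold change 1.14 ± 0.06, adjusted p = 0.0001). SERPINA9, a serpin of germinal center cells, went against its list (45.3, 37.1, 31.9 and 34.2 CPM against 130.1, 102, 96.1 and 96.1 CPM, log2 fold change -1.52 ± 0.05), as did the plasma cell proteoglycan SDC1 (24.8, 20.2, 21.8 and 22.7 CPM against 56.3, 51.3, 65.7 and 67.2 CPM, -1.42 ± 0.08). JCHAIN, which joins secreted antibodies, rose as well, at 67.9, 94.7, 93.1 and 109 CPM against 26.5, 17.0, 13.4 and 15.2 CPM (log2 fold change 2.36 ± 0.24, adjusted p = 0.000431). EBF1, a founding factor of the B lineage, had a log2 fold change of 0.75 ± 0.07. Of the 8 B-cell markers 3 were higher and 3 lower (37.5% each), against 22.9% and 24.0% of all genes tested. MS4A1, the antigen CD20, was among the lower ones at 177, 142, 80.5 and 62.8 CPM against 205, 167, 152 and 158 CPM, and it did not pass without the 18 h pair (adjusted p = 0.1). The lower count of the markers was then 1, and the higher count was 5 without the 6 h pair. Of 15 chromatin regulators 10 were higher and 1 lower, with HDAC5 at 41.8, 45.3, 33.7 and 38.4 CPM against 11.3, 12.8, 8.31 and 10.1 CPM (log2 fold change 1.91 ± 0.07, adjusted p = 3.52e-05) and the acetyltransferase CREBBP at 0.77 ± 0.11. Of 18 MHC class II genes 5 were lower (27.8%) and 4 higher (22.2%), near the shares of all genes tested (24.0% and 22.9%). The lower count was 2 without the 12 h pair, 2 without the 18 h pair and 8 without the 6 h pair. CIITA, the activator of MHC class II genes, was lower by a log2 fold change of -0.49 ± 0.06.

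Genes of the G1/S step fell late. Of 48 genes of the G1/S step and DNA replication 28 were lower and 0 higher (0 also by DESeq2, by limma-voom and at an unadjusted p under 0.05). Their median log2 ratio was 0.00 at 6 h, -0.31 at 12 h, -0.86 at 18 h and -1.11 at 24 h, and the number of members below 0 was 24, 42, 48 and 47 at these times. CDC25A, the phosphatase that opens S phase, read 75.6, 48.8, 45.9 and 43.1 CPM against 104, 95.3, 112 and 122 CPM (log2 fold change -1.05 ± 0.16, adjusted p = 0.00193), and CDC6, a loader of the replication helicase, read 77.8, 51.8, 33.6 and 31.6 CPM against 101, 91.2, 96.8 and 109.6 CPM (log2 fold change -1.12 ± 0.22, adjusted p = 0.00595). PCNA, the clamp of the polymerases, read 356, 258, 155 and 126 CPM against 317, 319, 282 and 302 CPM and did not pass over all times (adjusted p = 0.0642), but passed by limma-voom, with no filter, without the 6 h pair and in the fit of all 30 libraries (adjusted p = 0.0491, 0.0443, 0.00757 and 0.00696). The lower count was 13, 7 and 15 without the 12, 18 and 24 h pairs. Of 50 genes of G2 and mitosis 9 were higher (18%) and 6 lower (12%), below the shares of all genes tested (22.9% and 24.0%). Their median log2 ratio went from 0.31 at 6 h and 0.13 at 18 h to -0.39 at 24 h. CCNB2, a mitotic cyclin, read 87.6, 108, 103 and 68.9 CPM against 53.0, 62.0, 64.0 and 55.1 CPM (log2 fold change 0.64 ± 0.09, adjusted p = 0.00129). Without the 24 h pair 22 of them were higher, and without the 12 h or the 18 h pair 3, with 3 and 2 lower.

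Several inhibitors of the cycle rose. CDKN1B, the inhibitor p27, read 60.8, 59.3, 51.2 and 45.7 CPM against 29.3, 27.9, 26.2 and 31.1 CPM (log2 fold change 0.92 ± 0.10, adjusted p = 0.000499). Of 14 CDK inhibitors, D cyclins and their partners 6 were higher (42.9%) and 1, CDK4, was lower (7.14%), against 22.9% and 24.0% of all genes tested. Without the 6 h pair 5 were lower. CDKN2C, the inhibitor p18, had a log2 fold change of 0.93 ± 0.13 and CDK4 one of -0.53 ± 0.09. CCND3 read 197, 150.2, 110.0 and 129 CPM against 186, 168, 160.5 and 176 CPM and did not pass (adjusted p = 0.0726), but passed without the 6 h pair (adjusted p = 0.009). CCND2 had 3 counts or fewer in every library. In bulk samples a change in the share of cells in a phase and a change of transcript per cell cannot be told apart.

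Of the 13 members of the BCL2 family tested 5 were higher (38.5%) and 3 lower (23.1%), against 22.9% and 24.0% of all genes tested. Rises were found on both sides of the family. BCL2, which protects from cell death, read 193, 216, 253 and 258 CPM against 87.0, 82.2, 88.3 and 92.7 CPM (log2 fold change 1.39 ± 0.08, adjusted p = 0.0001), and BCL2L1, which does the same, had a log2 fold change of 0.72 ± 0.12. Among the members that promote death PMAIP1, the protein NOXA, read 15.03, 28.4, 39.6 and 40.7 CPM against 11.5, 10.2, 8.72 and 8.03 CPM (log2 fold change 1.61 ± 0.30, adjusted p = 0.00463). BBC3, the protein PUMA, was at most 1.39 CPM (log2 fold change 2.06 ± 0.48, adjusted p = 0.0114), and the effector BAK1 read 46.5, 42.8, 45.8 and 53.0 CPM against 70.8, 67.8, 68.2 and 70.0 CPM (log2 fold change -0.56 ± 0.06, adjusted p = 0.000662). MCL1 read 287, 324, 391 and 456 CPM against 313, 312, 336 and 342 CPM and did not pass (adjusted p = 0.245).

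**Figure D3:**
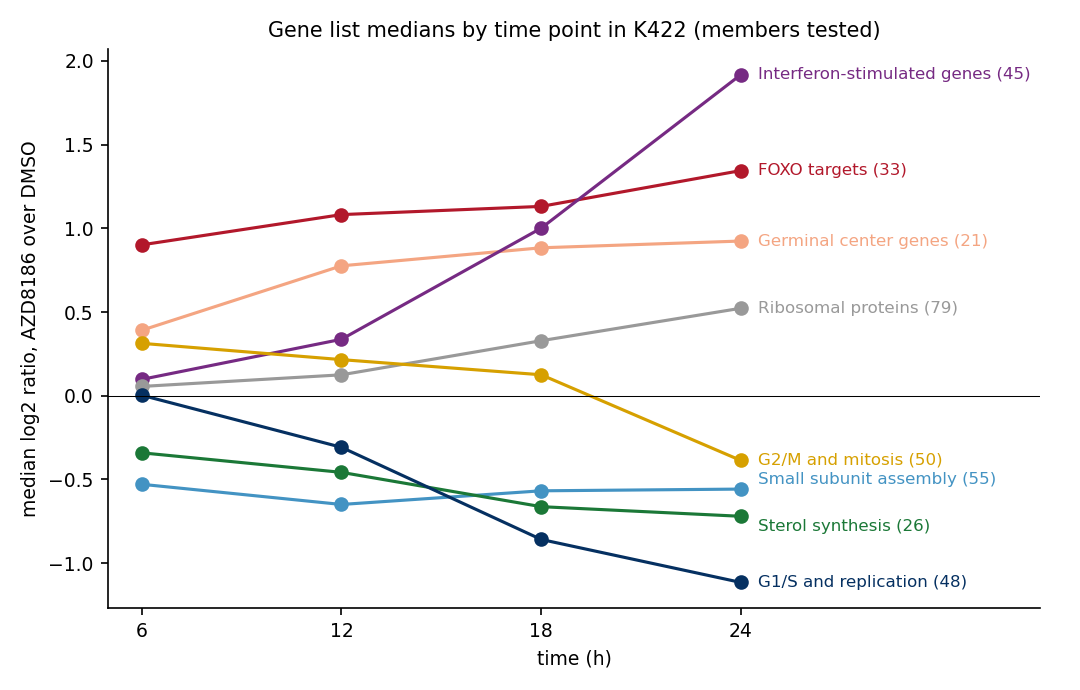
Median log2 ratio of AZD8186 over DMSO (vertical axis) at each time point in hours (horizontal axis) for 8 gene lists in K422, with the number of members tested in brackets. FOXO targets and small subunit assembly factors were displaced by 6 h at 0.90 and -0.53, while the interferon-stimulated genes rose to 1.92 and the G1/S genes fell to -1.11 at 24 h.

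Interferon-stimulated genes rose late. Of 45 tested 25 were higher and 0 lower (0 also by DESeq2, by limma-voom and at an unadjusted p under 0.05, and 1 on TPM), and the median log2 ratio was 0.10 at 6 h, 0.34 at 12 h, 1.0 at 18 h and 1.92 at 24 h. IFIT2, an inhibitor of viral translation, read 4.34, 10.1, 15.7 and 52.4 CPM against 3.03, 2.64, 2.02 and 2.92 CPM (log2 fold change 2.54 ± 0.51, adjusted p = 0.00671). IRF9, a DNA-binding factor of interferon signaling, read 32.0, 47.9, 60.9 and 77.0 CPM against 23.6, 28.4, 23.2 and 24.6 CPM (log2 fold change 1.06 ± 0.19, adjusted p = 0.00406). At 6 h IFIT2 and IRF9 stood just above the highest DMSO library, and at 24 h each had its highest level. IFI16, a sensor of DNA, read 48.0, 72.3, 102 and 126 CPM against 16.4, 17.4, 20.04 and 15.5 CPM (log2 fold change 2.25 ± 0.21, adjusted p = 0.000335). The count was 15 without the 12 h pair and 7 without the 18 h pair.

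**Figure D4:**
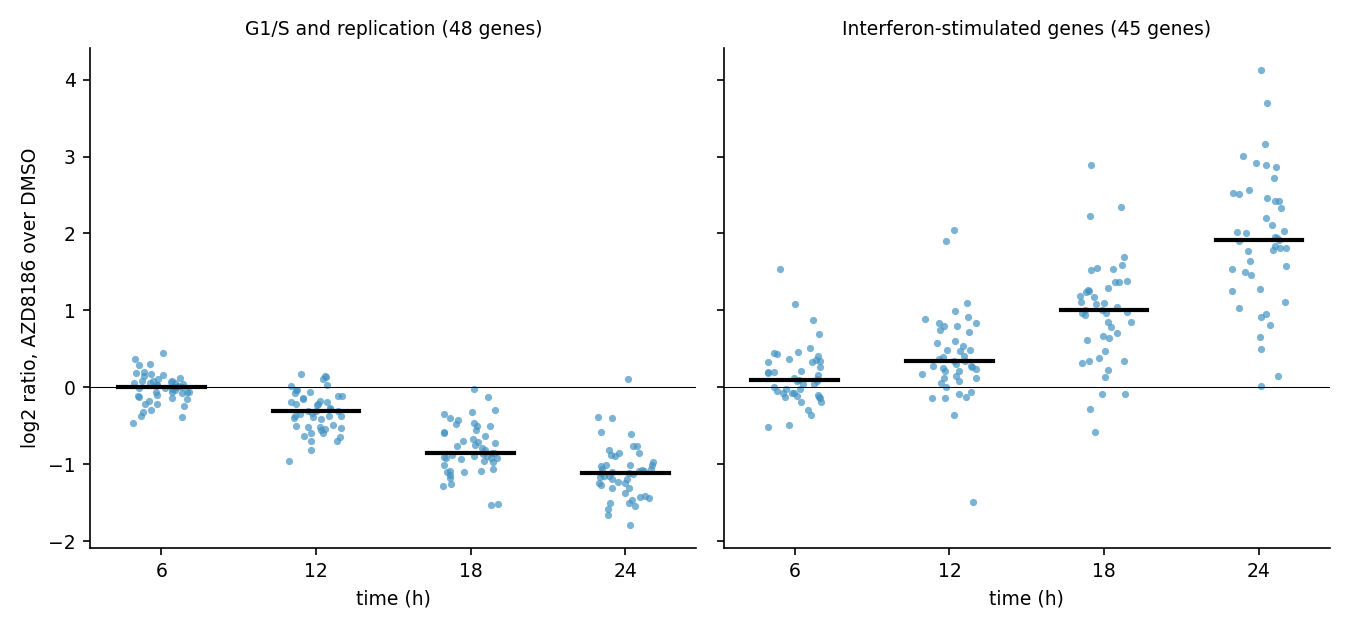
Log2 ratio of AZD8186 over DMSO (vertical axis) of each member (points) with the median (black bar) at each time point in hours (horizontal axis), for the 48 G1/S and replication genes and the 45 interferon-stimulated genes. The G1/S medians go from 0.00 to -1.11 and the interferon medians from 0.10 to 1.92 between 6 and 24 h.

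Whether the response itself changed with time was tested as the difference between the 18 to 24 h and the 6 to 12 h pairs. Of 10603 genes 222 (2.09%) passed, with 106 lower (1.0%) and 116 higher (1.09%) in the later pairs. Of the 48 G1/S genes 32 were lower (median difference -0.83), and of the 45 interferon-stimulated genes 19 were higher (median difference 1.15), against a median of 0.01 over all genes. Among the 33 FOXO targets GADD45A alone passed (median difference 0.18), and among the 55 and 61 assembly factors NOP53 alone, both higher in the later pairs. UHRF1, which keeps DNA methylation through replication, had a log2 fold change of -0.13 in the earlier and -1.60 in the later pairs (difference -1.47 ± 0.11, adjusted p = 0.00105). TCL1A went from 1.75 to 5.68 (difference 3.93 ± 0.47, adjusted p = 0.00966), and XBP1, a factor of secretory cells, from -0.94 to 0.09 (difference 1.03 ± 0.11, adjusted p = 0.00782). The counts rested on the outer time points: without the 6 h pair 5 genes were lower and 9 higher, without the 24 h pair 6 and 22, without the 12 h pair 413 and 589, and without the 18 h pair 305 and 327. The number of genes at least 2-fold from their DMSO library grew with time, from 245 higher and 164 lower at 6 h, through 447 and 190 at 12 h and 620 and 208 at 18 h, to 789 and 306 at 24 h, each from a single pair.

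K422 was set against the other lines in a fit of all 30 libraries, in which each line had its own DMSO libraries and the difference between the responses was tested. Of 12897 genes 2556 (19.8%) passed, and 1352 (10.5%) were lower and 1204 (9.34%) higher in the response of K422 than in the mean response of HT, OCI-Ly10 and TMD8. Without the K422 pair at 18 h these counts were 845 and 741, and without all 12 h libraries, a time that TMD8 lacked, 644 and 627. The median responses of the FOXO targets, assembly factors and lipid genes had the same sign in all 4 lines. Of 33 FOXO targets 22 were higher and 1 lower in K422 than in the mean of the others, with medians of 1.07 in K422, 0.52 in HT, 0.43 in OCI-Ly10 and 0.36 in TMD8. Of 55 small subunit factors 35 were lower and 2 higher, and of 61 large subunit factors 36 were lower, with medians of -0.57 and -0.62 in K422 and between -0.21 and -0.29 in the other lines. Of 26 sterol genes 17 were lower and of 13 fatty acid genes 8 were lower. Of 28 NF-κB targets 9 were higher and 3 lower, and their median was 0.10 in K422 and 0.05 in HT but -0.33 in OCI-Ly10 and -0.37 in TMD8.

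The single genes with the smallest p included UBALD2, with log2 fold changes of 1.85 in K422, 1.10 in HT, -0.81 in OCI-Ly10 and -0.18 in TMD8 (difference 1.82 ± 0.08, adjusted p = 4.72e-10). CAB39L, a scaffold of the kinase LKB1, had 2.47, 0.97, -0.40 and -0.22 in these lines (difference 2.35 ± 0.15, adjusted p = 6.31e-08), and SLC12A2, a sodium, potassium and chloride carrier, had 1.03, -0.19, -0.43 and -0.20 (difference 1.31 ± 0.09, adjusted p = 7.77e-08). RAC2 had -1.48, -0.49, 0.09 and 0.34 (difference -1.47 ± 0.11, adjusted p = 3.51e-07), and ATP2A3, a calcium pump of the endoplasmic reticulum, had -0.87, -0.06, 0.56 and 1.19 (difference -1.44 ± 0.12, adjusted p = 5.58e-07). The differences for MYC (-0.01 ± 0.18) and TNF (-0.45 ± 0.42, adjusted p = 0.53) did not pass, and neither did that for CXCR4 (4.46 ± 2.02, adjusted p = 0.137).

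Against HT, the other GCB line, 1364 genes (10.6%) passed, and 753 (5.84%) were lower and 611 (4.74%) higher in K422, and these counts were 387 and 300 without the K422 pair at 18 h, 520 and 364 without that at 24 h and 949 and 921 without that at 6 h. Of the 48 G1/S genes 22 were lower in K422, with a median of -0.53 in K422 and 0.03 in HT. PIK3CG was transcribed at 11.9 ± 1.99 TPM in K422 and 3.52 ± 0.44 TPM in HT with DMSO (mean ± SD, n = 4 each). Of the FOXO targets 14 were higher and 1 lower, of the germinal center genes 10 were higher and 1 lower of 21, and of the 26 sterol genes 11 were lower. BACH2 had a log2 fold change of 5.19 in K422 and 2.78 in HT (difference 2.42, adjusted p = 0.00162), and GADD45A, a stress sensor that blocks the cycle, one of 2.62 and 0.34 (difference 2.28, adjusted p = 0.00244). WNT5A, a secreted WNT ligand, had 1.47 and -0.15 (difference 1.62 ± 0.14, adjusted p = 3.35e-05), and FADS2, a fatty acid desaturase, -0.79 and 0.38 (difference -1.18 ± 0.12, adjusted p = 4.44e-05). For the interferon-stimulated genes 2 of 45 were higher in K422 than in HT, with medians of 0.92 and 0.29.

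**Figure D5:**
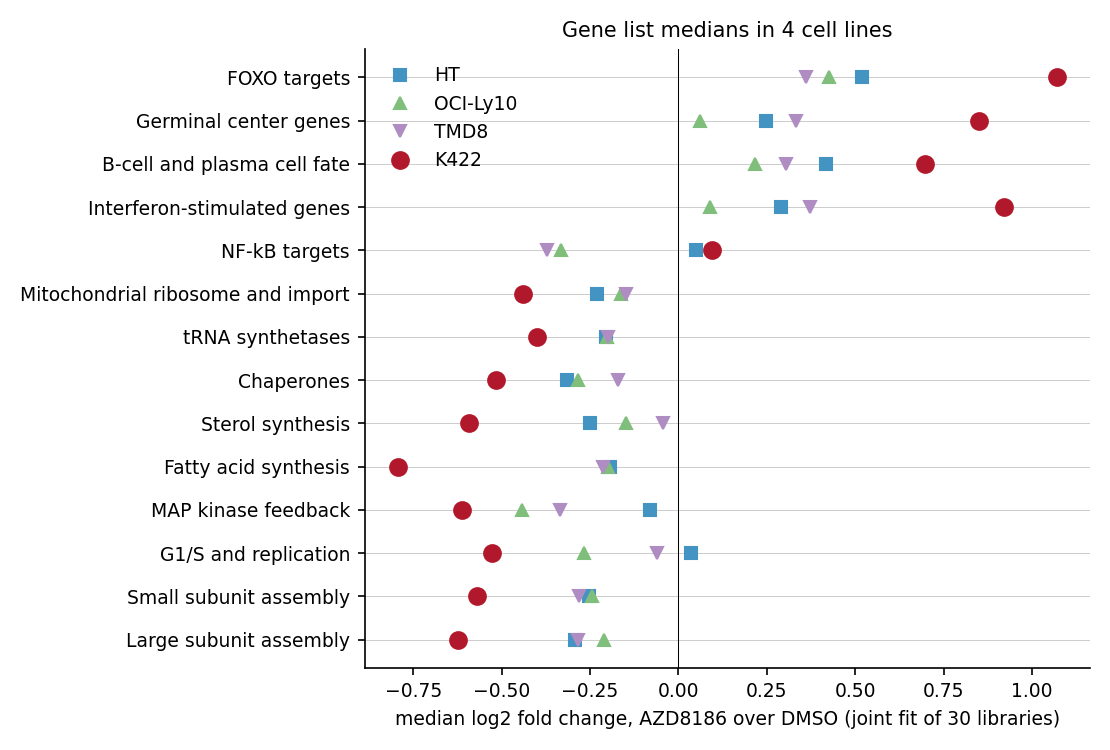
Median log2 fold change of AZD8186 over DMSO in the joint fit of 30 libraries (horizontal axis) for 14 gene lists (vertical axis) in K422, HT, OCI-Ly10 and TMD8 (symbols). The K422 median lies farther from 0 than those of the other 3 lines for each list shown other than the NF-κB targets, where K422 (0.10) and HT (0.05) lie apart from OCI-Ly10 (-0.33) and TMD8 (-0.37). This does not hold for every list not shown. Ribosomal proteins had medians of 0.28 in K422, 0.08 in HT, 0.32 in OCI-Ly10 and 0.38 in TMD8. Early signaling genes had -0.21, 0.17, -0.57 and -0.39 in the same order.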

How the data were processed

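RNA was sequenced from 8 K422 libraries, analysed alone and beside the other 22 of the 30 libraries. The authors aligned the reads with HISAT2 and quantified them with RSEM on GRCh38.p12, per the labels and the submitters' processing notes. The deposited expected counts, which RSEM shares among near-identical genes such as ribosomal proteins and histones, were rounded to whole numbers, and the 20 of 21112 rows that repeat a gene symbol were summed, which left 21092 genes. The deposited TPM values, scaled by the authors by length and library, served for levels between genes and as an alternative. The FPKM values were not used.

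Low counts were filtered with filterByExpr, libraries were scaled by TMM, and edgeR 4.0.16 (R 4.3.3) fitted treatment with the time point as a block, leaving 3 residual degrees of freedom. An adjusted p under 0.05 was called. An exact permutation test of 1 gene over 4 pairs cannot go below 0.125. The time points pair the libraries by their labels, and the deviations of paired libraries correlated at 0.09, 0.29, 0.26 and 0.02 at 6, 12, 18 and 24 h. No pair of libraries of a group agreed within sampling noise (chi-square per degree of freedom 11.7 to 62.5). The script was tested on simulated data.

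The 44 gene lists and the members were chosen with earlier results of these data known. The genes named were the 12 largest changes per direction that averaged 5 CPM or more over the 8 libraries and kept 1 direction in all pairs, the 3 smallest p of each list, in each difference the 5 smallest p for either direction and a set of pathway genes. The other genes named were chosen after their values were seen. The list of mitochondrially encoded genes was not analysed here, and a few genes that these rules name are not reported here. Alternatives were DESeq2 1.42.0, limma-voom (limma 3.58.1), other scalings, filters and thresholds, TPM, no block, and leaving out each time point. Promoters were RefSeq's, of GRCh38.p14.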

Additional observations from a re-analysis of the deposited data

Results flagged for a closer look

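A single library stood apart from the other 3 of its group in 3 of 102 groups of 4 values examined. Among replicates of the same time such a gap arises by chance in about 1 of 20 groups. Each group here held 1 library per time point, so a stray library and a change with time cannot be told apart. The serotonin receptor gene HTR3A was at 124 CPM with AZD8186 at 6 h, KLF2 was at 1.22 CPM with AZD8186 at 12 h, and TNF was at 1.73 CPM with AZD8186 at 6 h.

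The response of K422 differed from the mean response of the other 3 lines in many genes, and up to 5 with the smallest p per direction are given as differences of log2 fold changes ± SE. K422 was lower in RAC2 (-1.47 ± 0.11), ATP2A3 (-1.44 ± 0.12), C15orf39 (-0.89 ± 0.08), TRAF4 (-0.81 ± 0.07) and CD320 (-0.997 ± 0.09), with adjusted p of 3.51e-07 to 1.08e-06 by edgeR. It was higher in UBALD2 (1.82 ± 0.08), CAB39L (2.35 ± 0.15), CTDSP2 (1.604 ± 0.11), SLC12A2 (1.31 ± 0.09) and CAMSAP2 (1.15 ± 0.08), with adjusted p of 4.72e-10 to 1.36e-07.

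Against HT alone K422 was lower in FADS2 (-1.18 ± 0.12), ARHGAP45 (-1.09 ± 0.12), SNX22 (-1.19 ± 0.15) and CD320 (-0.85 ± 0.11), with adjusted p of 4.44e-05 to 0.000183 by edgeR. It was higher in SLC12A2 (1.22 ± 0.11), WNT5A (1.62 ± 0.14), STX7 (0.87 ± 0.09), CAB39L (1.501 ± 0.15) and KANK2 (2.66 ± 0.28), with adjusted p of 2.05e-05 to 4.44e-05.

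Within K422 the later response (18 to 24 h) lay below the earlier one (6 to 12 h) for UHRF1 (-1.47 ± 0.11), CDT1 (-1.15 ± 0.13), CLSPN (-1.26 ± 0.15), POLA1 (-0.94 ± 0.13) and E2F1 (-0.85 ± 0.12), with adjusted p of 0.00105 to 0.0269 by edgeR. It lay above the earlier one for RNA28SN3 (2.002 ± 0.18), RNA45SN1 (1.21 ± 0.12), XBP1 (1.03 ± 0.11), GBA2 (1.21 ± 0.14) and TCL1A (3.93 ± 0.47), with adjusted p of 0.00203 to 0.00966. RNA28SN3 and RNA45SN1 are copies of ribosomal RNA genes, among which the reads cannot be placed with certainty, and the share of ribosomal RNA ranged from 0.690% to 2.62% over the libraries. POLA1 and E2F1 did not pass without the 6 h pair (adjusted p = 0.091 for both) or without the 24 h pair (adjusted p = 0.052 and 0.0679).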

How the results depend on the processing

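The counts of called genes moved more with the time point left out than with the tool. At 3 residual degrees of freedom, 1571 genes were lower and 1272 higher at an adjusted p under 0.01. Leaving out 1 time point in turn gave 1529 to 2749 lower and 1294 to 2577 higher genes. DESeq2 gave 2303 and 2166, limma-voom 2545 and 2450, no filter 2565 and 2291, a minimum of 5 CPM 2254 and 2280, and the fit of all 30 libraries 2614 and 2927. On log2(TPM + 1), which shifts the median of all genes to -0.05, 62.3% of the calls were lower, against 51.2%, and 1 gene called in both had the other sign. Without the time points as a replicate block 2198 genes were lower and 2126 higher, and among the genes named CD38, LYN, MS4A1 and PAX5 lost the call (adjusted p = 0.0601, 0.0533, 0.114 and 0.28) while CD68, CD79B and RELB gained it. The pairing changed no other call of a named gene.

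For the difference between later and earlier pairs, a trend in log2 of the time gave 673 lower and 780 higher genes. Leaving out 1 pair, chosen after seeing the data as for the line differences that follow, gave 5 to 413 lower and 9 to 589 higher genes. K422 against the other 3 lines gave 644 lower and 627 higher without the 12 h libraries, and 845 to 1413 lower and 741 to 1427 higher without 1 K422 pair. K422 against HT gave 387 to 949 lower and 300 to 921 higher without 1 K422 pair. Of 2788 values of named genes under these settings, 2708 kept direction and side of the threshold, 55 lost the call, 25 gained it and 0 turned in direction. Genes under the filter could not be tested at 17543304 to 22190840 counts per library.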
